A study of Mus musculus with 6 samples.

Results

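The genes described here are the 4 mouse Notch receptors (Notch1, Notch2, Notch3 and Notch4), 3 of their ligands (Jag1, Jag2 and Dll1) and 3 of their target genes (Hes1, Hey1 and Heyl). They were taken by gene name from a table of 26969 genes measured in 6 RNA-seq libraries of mouse chondrocytes, the cell type of cartilage, and all 10 were found. The series asks how the transcriptome of chondrocytes differs after mitochondria, said in its title to come from osteocytes, have been transplanted into them. The libraries form 2 groups of 3. The descriptions name 1 group mAC_Mito and the other mAC, and these names also head the columns of the table. The titles and treatment entries say the opposite: the libraries described as mAC_Mito are entered there as vehicle and those described as mAC as mitochondria. Which group received mitochondria therefore cannot be told from the labels, so the groups keep their description names, each difference is mAC_Mito minus mAC, and none is given as an effect of mitochondria. Both groups share the wt genotype, and animal age, culture conditions and the separateness of the replicates are not stated, so a p-value reflects only how far these libraries scatter, which may be technical.

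Notch receptors are single-pass membrane proteins that bind ligands of the Jagged and Delta families on a neighbouring cell. Binding lets ADAM proteases and then gamma-secretase cut the receptor, and the freed intracellular domain enters the nucleus, joins the DNA-binding protein RBPJ and a Mastermind co-activator, and switches on genes of the HES and HEY families of transcriptional repressors. In mouse cartilage, Notch signalling is known to restrain chondrocyte differentiation, and both its loss and its excess disturb the growth plate and the joint.

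Total counts were 60151766 to 63700612 in the mAC_Mito libraries and 59116068 to 68378213 in the mAC libraries, and 17645 genes had enough counts to be tested. Chondrocyte markers were expressed, and the 12 examined all had a mean of at least 1 FPKM. FPKM is fragments per kilobase of gene model, scaled to library depth, a level that allows genes to be compared. The summed level of these markers was 2244 to 3206 FPKM in mAC_Mito and 2368 to 2766 FPKM in mAC. Their presence does not by itself settle how far the cells kept a cartilage state. Col1a1, a chain of type I collagen, averaged 420 FPKM, beside 1253.7 FPKM for the cartilage collagen Col2a1. Across all genes, edgeR's quasi-likelihood test, a count model, called 2 of 17645 genes at a Benjamini-Hochberg adjusted p under 0.05, or 0.0113% of those tested, 1 higher and 1 lower in mAC_Mito (0.00567% each). Principal component 1 held 27.5% of the variance. On it mAC_Mito libraries 1, 2 and 3 scored -21.2, 32.8 and 15.9 and the mAC libraries -51.1, -5.3 and 28.9, so that the groups were interleaved.

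The stretches just upstream of Notch1, Notch2, Notch3 and Jag1 are shown for a pattern described below. Whether the sequences relate to that pattern was not tested. Each of these 4 genes was below its mean over the 6 libraries in mAC_Mito 1 and above it in mAC_Mito 2 and 3. They differed in mAC 1, where Notch1 was above its mean and Jag1 below it. RefSeq promoter windows on GRCm38.p6 matched 7 of the 10 genes by symbol, the receptors and the ligands. Each sequence is the 250 bases before the annotated start, read 5′ to 3′ on the strand of the gene. Capitals mark the GC box, GGGCGG or its reverse complement CCGCCC, to which factors of the SP family bind. The Notch2 window is chr3:98013288-98013537 on the plus strand, the Notch1 window chr2:26503823-26504072, the Notch3 window chr17:32166891-32167140 and the Jag1 window chr2:137116521-137116770, these 3 on the minus strand.
Notch2: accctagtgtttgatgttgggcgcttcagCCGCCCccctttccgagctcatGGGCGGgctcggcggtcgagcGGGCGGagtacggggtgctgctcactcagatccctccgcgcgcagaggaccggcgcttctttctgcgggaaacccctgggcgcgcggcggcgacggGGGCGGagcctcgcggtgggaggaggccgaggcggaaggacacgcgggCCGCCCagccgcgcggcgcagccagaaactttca
Notch1: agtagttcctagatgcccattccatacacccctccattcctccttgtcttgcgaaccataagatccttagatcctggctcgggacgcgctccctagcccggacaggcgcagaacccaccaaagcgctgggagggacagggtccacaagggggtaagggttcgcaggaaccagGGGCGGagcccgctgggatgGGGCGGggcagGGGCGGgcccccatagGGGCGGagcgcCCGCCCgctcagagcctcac
Notch3: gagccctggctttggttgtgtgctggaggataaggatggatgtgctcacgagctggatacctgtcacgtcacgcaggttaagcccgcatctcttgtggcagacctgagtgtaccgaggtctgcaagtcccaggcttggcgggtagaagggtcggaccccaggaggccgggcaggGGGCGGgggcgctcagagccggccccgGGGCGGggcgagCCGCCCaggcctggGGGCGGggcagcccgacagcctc
Jag1: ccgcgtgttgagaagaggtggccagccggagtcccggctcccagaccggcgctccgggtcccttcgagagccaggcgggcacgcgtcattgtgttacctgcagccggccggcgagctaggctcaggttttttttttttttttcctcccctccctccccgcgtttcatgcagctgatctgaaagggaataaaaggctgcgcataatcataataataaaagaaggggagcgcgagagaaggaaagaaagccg
Notch2 and Notch1 each held 5 GC boxes and Notch3 held 4, whereas Jag1 held 0. Among the windows not shown, Jag2 held 5 and Notch4 and Dll1 held 0. A GC box on either strand was present in 32.9% of 27025 promoters of the same length, 1 per gene. The bases were 72.0% G or C in Notch2, 66% in Notch1, 68.8% in Notch3 and 57.2% in Jag1, against a median of 52.0% over all promoters. The core of the RBPJ site, TGGGAA or TTCCCA, was in none of these 4 windows, nor in those of Notch4, Jag2 and Dll1, and it was present in 21.5% of all promoters. The start used for Notch1 lies 12841 bases inside the gene as the table draws it, so a longer transcript begins elsewhere.

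Ordered by mean level, Notch2 came first, with 5.27 FPKM over the 6 libraries, followed by Hes1 with 3.58, Jag1 with 1.24, Notch1 with 0.672, Hey1 with 0.584 and Notch3 with 0.533 FPKM. Notch4, Dll1, Heyl and Jag2 were below 0.1 FPKM, at 0.0567, 0.0522, 0.0414 and 0.0267 FPKM. The order had 2 clear steps. Hes1 was above Jag1 in all 6 libraries with no overlap of their ranges (3.18 to 3.84 against 0.759 to 1.79 FPKM), and Notch3 was above Notch4 in all 6 (0.416 to 0.766 against 0.0216 to 0.0898 FPKM). All other neighbours in the order overlapped: Notch2 exceeded Hes1 in 4 of 6 libraries, Notch1 exceeded Hey1 in 4 and Hey1 exceeded Notch3 in 4. Jag1 exceeded Notch1 in every library although their ranges over libraries overlapped. FPKM divides by length, and the gene model was 16562 bases for Notch1 and 6743 bases for Jag1. Mean counts were 780.3 for Notch1 and 567.0 for Jag1 in mAC_Mito, and 594.3 and 472.7 in mAC. The order in FPKM and the shares below therefore depend on the gene models.

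**Figure D1:**
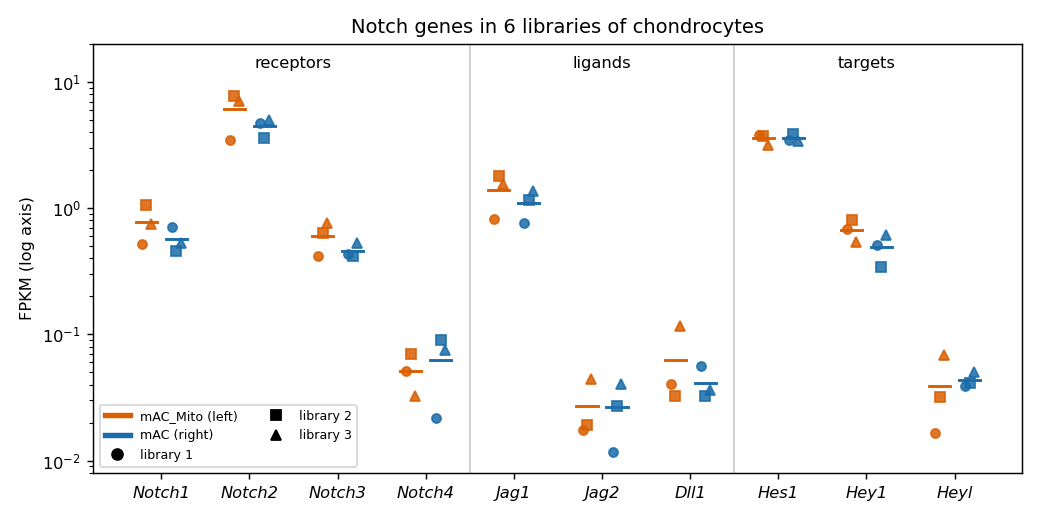
Level of each Notch gene in FPKM (log axis) in the 3 mAC_Mito libraries (orange, left) and the 3 mAC libraries (blue, right); symbols give the library number and bars the group mean. The groups overlap for all 10 genes, and Notch4, Jag2, Dll1 and Heyl stay at or below 0.116 FPKM in every library.

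Notch2 was the main receptor transcript. It had 3.5, 7.79 and 7.05 FPKM in mAC_Mito libraries 1, 2 and 3, against 4.70, 3.62 and 5.0 FPKM in mAC libraries 1, 2 and 3. On this scale mAC_Mito 2 and 3 were above every mAC library and mAC_Mito 1 below every one, so that the groups overlapped. The group means were 6.11 ± 2.29 FPKM in mAC_Mito and 4.44 ± 0.724 FPKM in mAC (SD, n = 3 each). Its log2 fold change of 0.43 had a standard error of 0.24 and a 95% interval of -0.12 to 0.97, and edgeR gave an adjusted p of 0.99992. The gene (ENSMUSG00000027878) lies on the plus strand of chromosome 3 at 98013527 to 98150361 on GRCm38. The predicted loci Gm42819 and Gm42820 lie inside it on the same strand, with at most 4 and 17 counts in a library, against at least 2879 for Notch2.

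Notch1, the receptor best known from T cell and neural development, had 0.524, 1.06 and 0.743 FPKM in mAC_Mito, against 0.710, 0.459 and 0.534 FPKM in mAC. mAC_Mito 1 fell among the mAC libraries, and the other mAC_Mito libraries lay above all 3 in FPKM; on the TMM-scaled log2 CPM described below, mAC 1 (0.23 above the gene's mean) was higher than mAC_Mito 3 (0.18 above it). Its means were 0.776 ± 0.271 FPKM in mAC_Mito and 0.568 ± 0.129 FPKM in mAC (SD, n = 3 each), with a log2 fold change of 0.41, a standard error of 0.25 and an edgeR adjusted p of 0.99992. The gene (ENSMUSG00000026923) lies on chromosome 2, minus strand, at 26457903 to 26516663. An antisense transcript, 0610009E02Rik, overlaps its end and had 42 to 99 counts, against 520 to 1029 for Notch1; the sources used here do not say whether counting used strand.

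Notch3, which in the vasculature marks mural cells, had 0.416, 0.631 and 0.766 FPKM in mAC_Mito, against 0.435, 0.418 and 0.533 FPKM in mAC. Its lowest library in FPKM was again mAC_Mito 1, and mAC_Mito 2 and 3 lay above all mAC libraries. Its log2 fold change of 0.36 had a standard error of 0.22, and the edgeR adjusted p was 0.99992. The gene (ENSMUSG00000038146) lies on chromosome 17, minus strand, at 32120820 to 32166852, where the antisense gene Gm17276 overlaps it with 7 to 30 counts, against 249 to 432 for Notch3. Notch4, a receptor of endothelial cells, was near the limit of detection, with 32, 40 and 19 counts in mAC_Mito and 13, 59 and 44 counts in mAC. Its groups overlapped throughout, and the log2 fold change of -0.27 had a 95% interval from -1.53 to 0.98. It lies on chromosome 17 at 34564268 to 34588503 (ENSMUSG00000015468).

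Notch2 made up most of the receptor pool in every library. The 4 receptors summed to 4.49, 9.55 and 8.59 FPKM in mAC_Mito and 5.86, 4.59 and 6.14 FPKM in mAC (two-sided exact permutation p = 0.4, where 3 against 3 libraries cannot go below 0.1). Notch2 made up 77.9, 81.5 and 82.1% of this sum in mAC_Mito, against 80.1, 78.9 and 81.4% in mAC. The share of Notch1 was 10.5 ± 1.61% in mAC_Mito and 10.3 ± 1.72% in mAC, and that of Notch3 was 8.27 ± 1.45% in mAC_Mito and 8.41 ± 0.88% in mAC (SD, n = 3 each). Notch4 contributed 0.376 to 1.15% in mAC_Mito and 0.368 to 1.96% in mAC. The share of Notch2 differed by 0.368 percentage points between the groups, less than its spread within either of them (two-sided exact permutation p = 0.8).

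Among the ligands, Jag1 (Jagged1) was the main transcript, the other 2 staying at or below 0.116 FPKM in every library. It had 0.822, 1.79 and 1.55 FPKM in mAC_Mito, against 0.759, 1.16 and 1.37 FPKM in mAC. Library 1 was the lowest in both groups, and mAC_Mito 2 and 3 were above all mAC libraries. The means were 1.39 ± 0.504 FPKM in mAC_Mito and 1.10 ± 0.311 FPKM in mAC (SD, n = 3 each), and the log2 fold change of 0.32 had a standard error of 0.27 (edgeR adjusted p = 0.99992). The gene (ENSMUSG00000027276) lies on chromosome 2, minus strand, at 137081456 to 137116644. Jag2 (Jagged2) had 10, 10 and 22 counts in mAC_Mito and 6, 15 and 22 counts in mAC, a log2 fold change of 0.02. Dll1 (Delta-like 1) had 14, 10 and 34 counts in mAC_Mito and 18, 11 and 11 counts in mAC, so that its log2 fold change of 0.54 rested on mAC_Mito 3 and was -0.16 without that library. At this depth the 95% interval of the log2 fold change ran from -1.5 to 1.55 for Jag2 and from -0.95 to 2.03 for Dll1. Both intervals are wide, and the difference that could have been detected was not calculated. Jag2 (ENSMUSG00000002799) lies on chromosome 12 at 112907819 to 112929776 and Dll1 (ENSMUSG00000014773) on chromosome 17 at 15367354 to 15376872. Jag1 supplied 90.6 to 97.2% of the summed FPKM of the 3 ligands in mAC_Mito and 91.8 to 95.1% in mAC.

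Hes1, a repressor that receptor cleavage induces directly, was the steadiest member. It had 3.8, 3.75 and 3.18 FPKM in mAC_Mito, against 3.46, 3.84 and 3.43 FPKM in mAC. The highest library overall was only 1.21 times the lowest, whereas that ratio was 2.23 for Notch2. The means were 3.58 ± 0.346 FPKM in mAC_Mito and 3.58 ± 0.228 FPKM in mAC (SD, n = 3 each). The 95% interval of the log2 fold change was -0.35 to 0.31, or 0.786 to 1.24 times the mAC level (edgeR adjusted p = 0.99992). Its width reflects only the scatter of these libraries. Hes1 (ENSMUSG00000022528) lies on the plus strand of chromosome 16 at 30064384 to 30067796.

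Hey1, a related repressor that also answers to BMP signals, had 0.687, 0.805 and 0.542 FPKM in mAC_Mito, against 0.507, 0.344 and 0.617 FPKM in mAC. mAC_Mito 1 and 2 lay above all mAC libraries and mAC_Mito 3 among them, so that mAC_Mito 2 was high in Hey1 as in Notch1, Notch2 and Notch3, whereas mAC_Mito 1 was high in Hey1 and below the mean of the 6 libraries in those receptors. Its log2 fold change of 0.45 had a standard error of 0.27 and a 95% interval of -0.17 to 1.06 (edgeR adjusted p = 0.99992). Heyl, the third repressor, had 7, 12 and 25 counts in mAC_Mito and 14, 17 and 19 counts in mAC, with mAC_Mito holding both the lowest and the highest library, and a log2 fold change of -0.14 with a 95% interval from -1.57 to 1.28. Hey1 (ENSMUSG00000040289) lies on chromosome 3, minus strand, at 8663359 to 8667256 and Heyl (ENSMUSG00000032744) on the plus strand of chromosome 4 at 123233556 to 123249875. Within the summed FPKM of the targets, Hes1 took 84.4, 81.7 and 83.9% in mAC_Mito and 86.4, 90.9 and 83.7% in mAC (two-sided exact permutation p = 0.3).

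As a set, 0 of the 10 genes passed an adjusted p of 0.05 in edgeR, against 0.0113% of all 17645 genes tested (0.00567% higher and 0.00567% lower). At an unadjusted p under 0.05 there were 0 of the 10, against 3.19% of all genes, and 2.1% on the higher side. All 10 passed the filter on low counts, all 10 intervals included 0, and the groups failed to overlap for 0 of the 10, against 8.31% of all genes. The log2 fold change was above 0 for 7 of 10, with a median of 0.34, where 50.4% of all genes were above 0 and the median was 0.00. In these bulk libraries fewer expressing cells and less RNA per cell cannot be told apart. DESeq2, another count model, gave Notch2 an unadjusted p of 0.0474 with an adjusted p of 0.9999, and it called 0 of the 10 at an adjusted p of 0.05; the other 9 genes were above 0.05 before adjustment.

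**Figure D2:**
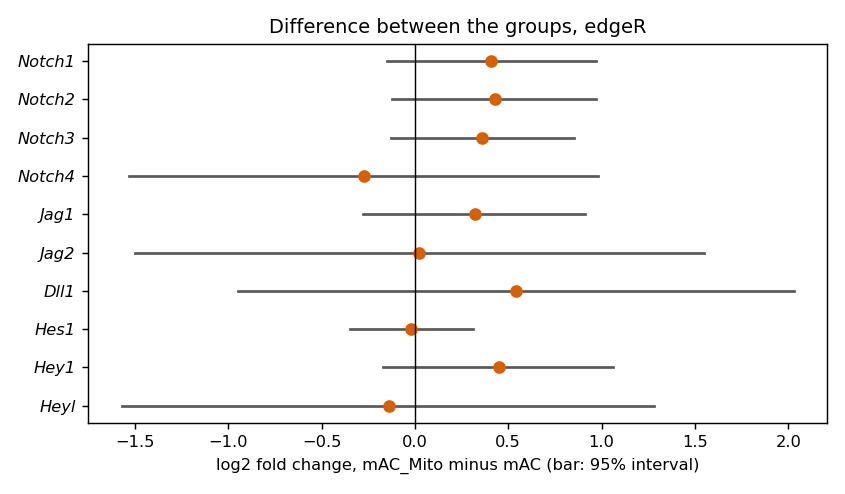
Log2 fold change of each gene, mAC_Mito minus mAC, fitted by edgeR on counts of 3 libraries per group, with its 95% interval. All 10 intervals include 0; they are narrowest for Hes1 (-0.35 to 0.31) and widest for Jag2 and Dll1, which had 34 counts or fewer in every library.

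The difference that did appear lay between libraries. Log2 CPM (counts scaled to library size, here by TMM) was taken after subtracting the mean of the 6 libraries. Notch2 stood at -0.47, 0.57 and 0.45 in mAC_Mito 1, 2 and 3, with 0.00 in mAC 1, -0.48 in mAC 2 and -0.07 in mAC 3. Notch3 was on the same side of its mean as Notch2 in all 6 libraries, and Notch1 and Jag1 were in 5 of 6. For mAC 1 the side says little, since Notch2 was at 0.00 there. In that library Notch1 stood at 0.23, Notch3 at -0.16 and Jag1 at -0.54. The root mean square difference from Notch2 over the 6 libraries was 0.19 for Notch3, 0.21 for Notch1 and 0.30 for Jag1, on this log2 scale. It was 0.41 for Hey1. Between Notch1 and Jag1 the root mean square difference was 0.436, beside 0.434 between Notch1 and Hes1. In Hes1 the same libraries stood at 0.15, 0.01 and -0.19 in mAC_Mito, so that its lowest library, mAC_Mito 3, was the highest for Notch3 and next to highest for Notch2. The ratio of summed receptor to summed target FPKM was accordingly 0.996, 2.08 and 2.26 in mAC_Mito and 1.46, 1.09 and 1.5 in mAC (two-sided exact permutation p = 0.4).

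The distance between the groups depended on single libraries in either direction. Without mAC_Mito 1 the log2 fold change was 0.68 for Notch2, 0.60 for Notch1, 0.54 for Notch3 and 0.56 for Jag1, with unadjusted edgeR p-values of 0.00207, 0.0396, 0.0217 and 0.028. None passed adjustment: the edgeR adjusted p-values were 0.428, 0.735, 0.671 and 0.695. In that fit 6.74% of all genes had an unadjusted p under 0.05, against 3.19% with all libraries. Without mAC_Mito 2 the log2 fold changes were 0.24 for Notch2, 0.14 for Notch1, 0.35 for Notch3 and 0.11 for Jag1. Without mAC_Mito 3 they were 0.31 for Notch2, 0.44 for Notch1, 0.16 for Notch3 and 0.23 for Jag1. Among the mAC libraries, leaving out mAC 1 gave 0.66 for Notch1 (edgeR adjusted p = 0.989) and 0.14 for Jag1, and leaving out mAC 2 gave 0.28 for Notch2 and 0.26 for Notch1.

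**Figure D3:**
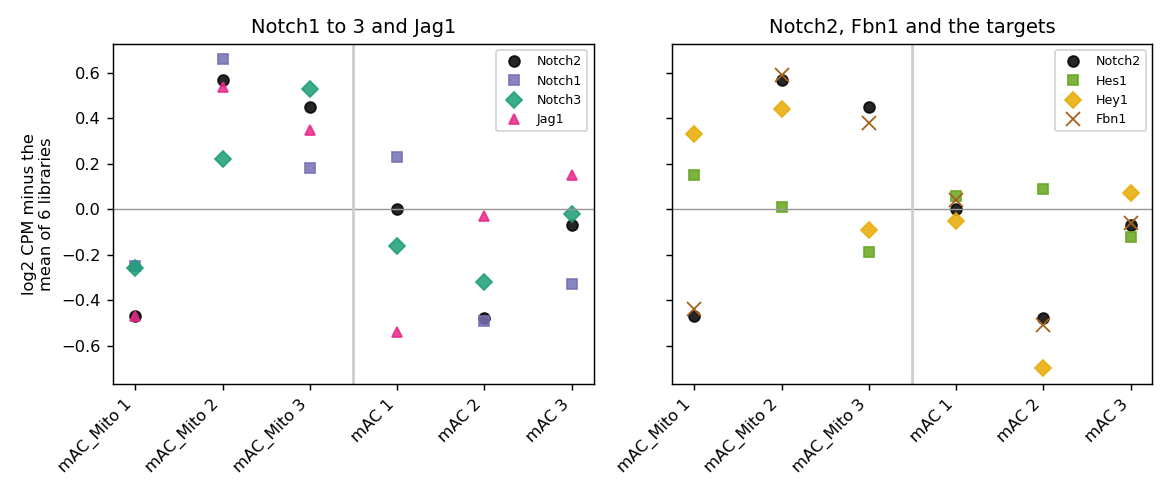
Log2 CPM of each gene minus its mean over the 6 libraries, with mAC_Mito libraries left of mAC libraries. Left, Notch1, Notch2, Notch3 and Jag1 are all low in mAC_Mito 1 and high in mAC_Mito 2 and 3; right, Fbn1 follows Notch2 to within a root mean square difference of 0.037, while Hes1 stays between -0.19 and 0.15.

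Library patterns were compared with those of 6134 other genes with a mean of at least 5 FPKM, leaving out symbols of predicted genes. The 2 nearest to Notch2 were Fbn1 (fibrillin-1, a microfibril protein) and Col1a1 (a chain of type I collagen). Their root mean square differences from Notch2 were 0.037 and 0.047 over 6 libraries. Fbn1 stood at -0.44, 0.59 and 0.38 in mAC_Mito and 0.04, -0.51 and -0.06 in mAC. The nearest to Jag1 were Col11a2, a cartilage collagen chain, at 0.112, and the ribosomal protein pseudogene Rpl13-ps6 at 0.135. The nearest to Hes1 were Zhx1 at 0.031, which encodes a zinc finger and homeobox protein, and Mmab at 0.033, an enzyme of cobalamin metabolism. Transcript length moved in part with the same pattern. The 2475 tested genes with a gene model over 8000 bases and a mean of at least 1 FPKM, a class to which the Notch2 model of 12466 bases belongs, had a median of -0.052, 0.089 and 0.019 in mAC_Mito and 0.047, -0.066 and -0.04 in mAC on the same scale. The 2102 genes with a model under 2000 bases stood at 0.051, -0.046 and -0.004 in mAC_Mito and -0.082, 0.048 and 0.073 in mAC. The part of transcript length in the receptor values was not tested.

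The machinery around the receptors was present. Of 69 other pathway genes in 6 lists, 66 had a row, 50 had a mean of at least 1 FPKM and 59 were tested. In edgeR 0 rose and 0 fell at an adjusted p under 0.05, and 2 had an unadjusted p under 0.05, which is 3.39% of those tested, beside 3.19% of all genes. The median log2 fold change was 0.04. On log2 CPM the groups did not overlap for 4 of the 59, or 6.78%, against 8.31% of all genes; named after their values were seen, these were Dlk1, Mfng and Furin, which lay higher in mAC_Mito, and Xxylt1, which lay lower. Mfng, which is among both counts, passed the filter on low counts only through its mAC_Mito libraries.

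The ligand list beyond the members was carried by Dlk1, a Delta-like membrane protein that lacks the receptor-activating domain and is expressed from an imprinted locus. It had 51.2, 50.3 and 52.2 FPKM in mAC_Mito, against 45.2, 39.6 and 35 FPKM in mAC. Its mean of 45.6 FPKM compares with 1.24 FPKM for Jag1. Every mAC_Mito library was above every mAC library. Its log2 fold change of 0.33 had a standard error of 0.13 and an unadjusted p of 0.0318, and the edgeR adjusted p was 0.99992. Of the 6 genes in this list 4 were tested and all 4 had log2 fold changes above 0, with a median of 0.28, while the Delta family members Dll3 and Dll4 averaged 0.0109 and 0.00771 FPKM. The summed level of the list was 64.5 to 67.4 FPKM in mAC_Mito and 49.1 to 56.2 FPKM in mAC.

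Of the 10 genes for folding and glycosylation of the receptors, Poglut1, which adds O-glucose to EGF repeats, was the most abundant, at 12.6 ± 0.778 FPKM in mAC_Mito and 13 ± 0.231 FPKM in mAC (SD, n = 3 each). Mfng (Manic fringe), a glycosyltransferase that alters which ligands a receptor answers to, had few counts in any library. It had 24, 10 and 23 counts in mAC_Mito, against 2, 4 and 0 counts in mAC. The sums were 57 counts in mAC_Mito and 6 counts in mAC. It passed the filter on low counts only through mAC_Mito, where it was high, so its fitted fold change and unadjusted p are not read as evidence; the edgeR adjusted p was 0.99992. Its mean level of 0.0494 FPKM was far below that of the other fringe genes Rfng, with 5.02 FPKM, and Lfng, with 2.39 FPKM. The list as a whole had 6 of 10 log2 fold changes above 0 and a median of 0.11.

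The 9 sheddases and gamma-secretase subunits had a median log2 fold change of 0.02, with 5 above 0. Psenen, a gamma-secretase subunit and the most abundant, was at 37.0 ± 1.79 FPKM in mAC_Mito and 36.2 ± 5.70 FPKM in mAC, and Aph1b, another subunit with the smallest unadjusted p of the list (0.283), was at 1.90 ± 0.255 FPKM in mAC_Mito and 2.10 ± 0.297 FPKM in mAC. Of the 14 genes of endocytosis and ubiquitin ligation 13 were tested, 8 of them above 0, with a median of 0.03. The ubiquitin ligase Nedd4 was at 135 ± 8.54 FPKM in mAC_Mito and 132 ± 5.23 FPKM in mAC, and Neurl1a, a relative of the fly ligase Neuralized, had the smallest unadjusted p (0.136). All 20 nuclear effectors and co-repressors were tested, 14 of them above 0, with a median of 0.07. The histone deacetylase Hdac1 was the most abundant, at 40.0 ± 1.04 FPKM in mAC_Mito and 42.9 ± 2.80 FPKM in mAC, and Spen, a co-repressor of RBPJ, had the smallest unadjusted p (0.0615), with a log2 fold change of 0.48. Rbpj itself, named after its values were seen, had 11.7, 13.1 and 13.5 FPKM in mAC_Mito and 13.6, 11.2 and 11.9 FPKM in mAC. Of the 10 other HES, HEY and target genes 7 had a row and 3 were tested, with a median of 0.12 and 2 above 0. Bhlhe40, a relative of the HES repressors best known as a clock gene, was the most abundant, at 9.50 ± 0.799 FPKM in mAC_Mito and 10.1 ± 0.511 FPKM in mAC, and Bhlhe41 had the smallest unadjusted p (0.347). Hey2 and Nrarp, both induced by Notch in other tissues, averaged 0.0234 and 0.0235 FPKM. Hes2, Hes3 and Hes5 had no row under these names.

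**Figure D4:**
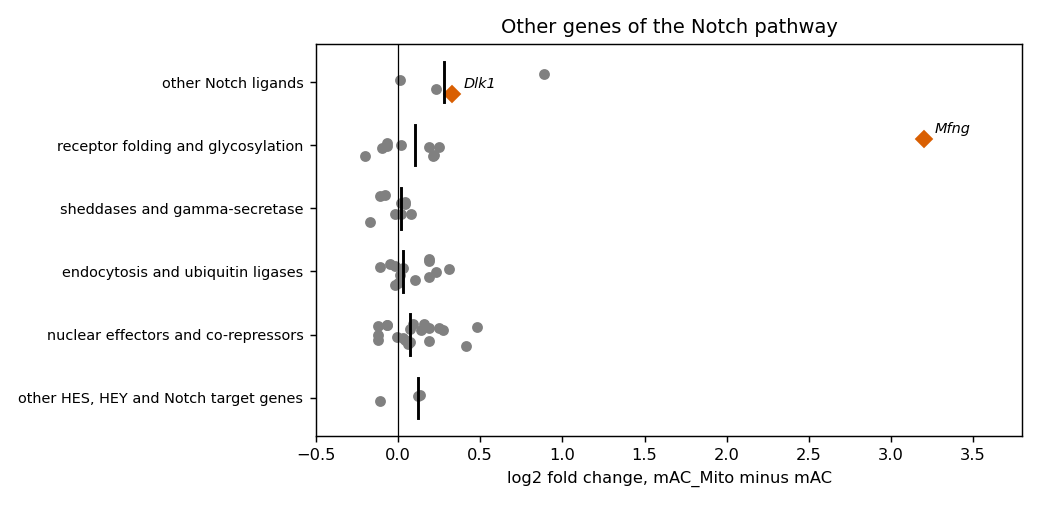
Log2 fold change, mAC_Mito minus mAC, of each tested gene in 6 lists of other Notch pathway genes; black bars are list medians, orange diamonds have an unadjusted edgeR p under 0.05. Dlk1 (0.33) and Mfng (3.20, fitted on a gene that passed the filter only through mAC_Mito) are marked, and no gene passed adjustment.

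Of 8 cartilage genes reported to respond to Notch in mouse studies, 0 passed adjustment and 0 had an unadjusted p under 0.05, with 5 log2 fold changes above 0 and a median of 0.09. Il6, a cytokine with the smallest unadjusted p of that list (0.0746), was at 2.43 ± 0.0746 FPKM in mAC_Mito and 3.06 ± 0.775 FPKM in mAC (SD, n = 3 each), and Col2a1, the main cartilage collagen, was the most abundant. Col2a1 had 950.6, 1661.8 and 1558.6 FPKM in mAC_Mito and 1099.2, 1026.3 and 1225.7 FPKM in mAC. Acan and Mmp13 are named after their values were seen. Acan had 63.5, 133.6 and 113.2 FPKM in mAC_Mito and 81.1, 64.4 and 79.7 FPKM in mAC. Both Col2a1 and Acan were lowest in mAC_Mito 1 and highest in mAC_Mito 2 and 3. Mmp13 went otherwise, at 50.8, 45.7 and 44.3 FPKM in mAC_Mito. The 12 chondrocyte markers had 8 log2 fold changes above 0 and a median of 0.09. Among them 1 of 12 had an unadjusted edgeR p under 0.05, against 3.19% of all genes tested. This was Sox6, with a log2 fold change of 0.31 (named after its values were seen).

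Markers of other cell types that carry Notch receptors were measured beside these values. Of 11 endothelial markers 2 reached a mean of 1 FPKM, Erg at 7.33 and Egfl7 at 1.13 FPKM, while the defining genes Pecam1, Cdh5 and Kdr averaged 0.0782, 0.126 and 0.0454 FPKM. The list summed to 8.09 to 8.94 FPKM in mAC_Mito and 8.61 to 10.4 FPKM in mAC. Of 9 pericyte and smooth muscle markers with a row, 5 reached 1 FPKM and their sum was 577 to 646 FPKM in mAC_Mito and 575 to 637 FPKM in mAC. Most of this was the smooth muscle actin Acta2, at 568 ± 41.9 FPKM in mAC_Mito and 571 ± 33.2 FPKM in mAC, whereas the pericyte genes Rgs5, Kcnj8 and Abcc9 averaged 0.207, 0.263 and 0.148 FPKM. In this list 5 of 9 log2 fold changes were above 0, with a median of 0.21. Against 3.19% of all genes tested, 2 of the 9 had an unadjusted edgeR p under 0.05. Named after their values were seen, these were Pdgfrb, a PDGF receptor of mesenchymal and mural cells, with a log2 fold change of 0.34, and Myh11, a smooth muscle myosin, with 0.61. Pdgfrb had 21.6, 32.3 and 32.4 FPKM in mAC_Mito and 23.0, 21.7 and 21.8 FPKM in mAC. Cspg4, the NG2 proteoglycan, was also named after its values were seen. It had 4.04, 9.72 and 9.03 FPKM in mAC_Mito and 4.99, 4.59 and 5.59 FPKM in mAC. Both Pdgfrb and Cspg4 were high in mAC_Mito 2 and 3 and lowest in mAC_Mito 1, as Notch2 and Notch3 were in FPKM. Other genes of the list went otherwise. Acta2 was highest in mAC_Mito 1 (609 FPKM) and lowest in mAC_Mito 2 (525 FPKM). Des and Abcc9 were lower in mAC_Mito 2 (2.51 and 0.111 FPKM) than in mAC_Mito 1 (3.82 and 0.18 FPKM). The pattern of Notch2 and Notch3 was not particular to this list, since the chondrocyte markers Acan and Col2a1 also had it. The chondrocyte marker Hapln1 went otherwise, at 46.4, 42.7 and 41.9 FPKM in mAC_Mito and 49.9, 46.7 and 44.3 FPKM in mAC. Of 9 macrophage and leukocyte markers with a row, 4 reached 1 FPKM, Lyz2 being the most abundant, and the list's sum was 71.5 to 116 FPKM in mAC_Mito and 64.0 to 82.1 FPKM in mAC. Of its 8 tested members 7 had log2 fold changes above 0, with a median of 0.34. An unadjusted edgeR p under 0.05 was found for 1 of these 8, against 3.19% of all genes tested. This was the integrin chain Itgam, at 0.347 ± 0.0903 FPKM in mAC_Mito and 0.197 ± 0.0488 FPKM in mAC (SD, n = 3 each). Of 6 muscle stem cell and myoblast markers with a row 1, Myog, reached 1 FPKM, and the list summed to 1.97 to 2.64 FPKM in mAC_Mito and 1.59 to 2.53 FPKM in mAC. Of 8 osteoblast and osteocyte markers with a row, 4 reached 1 FPKM, Pdpn being the most abundant, and they summed to 53.8 to 68 FPKM in mAC_Mito and 60.6 to 77.5 FPKM in mAC. Higd1b, Pax7, Cd3e and Mepe, from these lists, had no row. Every gene with a row had at least 1 count over the libraries, so no marker with a row could be at 0 in all 6. No marker passed an adjusted p of 0.05 in edgeR, and the part of these cells in the Notch values was not tested.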

How the data were processed

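Poly(A) RNA was sequenced as paired ends, per the labels' protocols, whose text speaks of adipose RNA although the source is chondrocytes. The authors deposited 1 table with a raw read count and an FPKM value per gene and library, per the file headers. Bowtie 0.12.2, HISAT2 2.0, StringTie 1.3.0 and the build mm8 appear, without roles, in the submitters' processing notes; the table's coordinates are those of GRCm38, since 26821 of 26902 identifiers shared with GENCODE M21 had at least 1 end in common. How shared or antisense reads were counted is not given in the sources used here.

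Counts were tested with edgeR 4.0.16 (R 4.3.3): filterByExpr (minimum count 10, minimum total 15), TMM, quasi-likelihood F test, two-sided, Benjamini-Hochberg adjustment over all 17645 genes tested, threshold 0.05. Standard errors and 95% intervals are those implied by the F statistic. Log2 CPM used a prior count of 2. The code was tested on simulated data. Shares and sums of FPKM were compared by exact permutation. DESeq2 1.42.0, limma 3.58.1 on log2(FPKM + 1) and log2(FPKM + 0.1), other scalings and filters, a replicate block and leaving out each library were alternatives. The 10 genes and the gene lists were chosen with earlier results of these data known; the comparison of long and short gene models was added after seeing the data. The rule for naming genes from each list was the members past the threshold or else the most abundant one and, for pathway lists, the one with the smallest unadjusted p. Other list genes are named outside this rule, among them Dll3, Dll4, Hey2, Nrarp, Pecam1, Rgs5, Cspg4 and Itgam. For likeness, the text names the 2 nearest genes to each of the 3 members with a mean of at least 1 FPKM.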

Additional observations from a re-analysis of the deposited data

How the results depend on the processing

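No Notch gene and no other pathway gene was called under any of the 14 alternatives. Both limma fits and the edgeR fit limited to genes with at least 1 FPKM in at least 3 libraries tested 3 of the members (Notch2, Jag1 and Hes1), and the other 11 alternatives tested all 10. The log2 fold changes of Notch1, Notch2, Notch3, Jag1 and Hey1 stayed above 0 in each alternative that tested them, at 0.14 to 0.66, 0.24 to 0.68, 0.16 to 0.54, 0.11 to 0.56 and 0.24 to 0.60. The sign turned when libraries were left out in turn for Hes1 (-0.108 to 0.066), Notch4 (-0.651 to 0.096), Jag2 (-0.465 to 0.47), Dll1 (-0.157 to 0.912) and Heyl (-0.77 to 0.194); these were not called, and the cause was not tested. Over all genes, 1 was higher and 1 lower in mAC_Mito. DESeq2 called 3 higher and 2 lower, and a fit with no filter on low counts called 0 and 0, while leaving out a library gave 0 to 3 higher and 0 to 1 lower. With the replicate number as a block 1 gene was higher, 1 lower and 0 Notch genes were called. Across genes, deviations of same-numbered libraries from their group means correlated at 0.124, -0.06 and -0.012, so the numbers are not taken as pairs. Dlk1 ranged from 0.22 to 0.48 (log2), with a lowest adjusted p of 0.787. The shares of Notch2, Notch1, Jag1 and Hes1 in their classes moved by less than the SD pooled over both groups (1.82, 1.67, 2.66 and 2.75 percentage points). Leaving out libraries in turn gave -0.407 to 1.66 points for Notch2, -0.578 to 1.13 for Notch1, -1.85 to 1.44 for Jag1 and -5.28 to -1.7 for Hes1, whose value was nearest 0 without mAC 2. Depth limits Notch4, Jag2, Dll1 and Heyl, with 59 counts or fewer per library.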
